A study of Rattus norvegicus with 15 samples.

Results

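The nitric oxide and cGMP pathway was described here through 10 genes: the nitric oxide synthases Nos3, Nos1 and Nos2, the soluble guanylate cyclase subunits Gucy1a1 and Gucy1b1, the kinase Prkg1, the phosphodiesterase Pde5a, the caveolae protein Cav1, and the hydrolases Ddah1 and Ddah2. All probe sets whose single platform gene symbol was one of these were taken, older symbols included. That gave 12 probe sets for 9 of the 10 genes, out of 15923 probe sets on the array, and all 12 passed the filter on low signals. Prkg1 had no probe set under this rule. A probe set assigned to both Nos2 and the related Nos2-ps1 was left out.

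In an artery, nitric oxide is made from arginine by endothelial nitric oxide synthase and diffuses into the smooth muscle below. There it binds the haem of soluble guanylate cyclase, a dimer of an alpha and a beta subunit, which makes cGMP. cGMP activates cGMP-dependent protein kinase and relaxes the muscle, and phosphodiesterase 5 ends the signal by hydrolysing cGMP. In arteries, flow over the endothelium is a known stimulus of this pathway and of collateral growth.

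The series measured the posterior cerebral artery on the operated side in Sprague Dawley rats aged 7 weeks and weighing 300 to 350 g, on 15 Affymetrix Rat230A arrays in 5 groups of 3. The operated groups had 3-vessel occlusion (3VO), in which both vertebral arteries were electrocoagulated and the left common carotid artery was tied. Arteries were taken after 24 h or after 3 d, and each 3VO group had a sham group of the same time whose vessels were exposed only. The fifth group was intact animals. Rats were anaesthetised with isoflurane and given buprenorphine, and the vessels of the rats were filled with latex under papaverine, a vasodilator, before dissection. Each array held RNA of 8 pooled rats, so the spread between animals was not measured. The labels mention repeated hybridisation and do not say whether each array of a group had its own 8 rats. The p-values therefore measure the spread between arrays, which may be technical. The treatment text of sham 3 d array 1 describes the occlusion while its title, source and description say sham. It was kept as sham, and values without it are given for the members it moved most.

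The mean signal after trimming 2% at each end was 5000 on every array. Median signals ran from 2553.4 to 2938.4, and arrays of 1 group correlated at 0.913 to 0.955. Smooth muscle markers (8 of 8 measured) and endothelial markers (6 of 8) were well above the low end of the scale on every array. The smooth muscle marker Tagln lay between 62721 and 148732 and the endothelial marker Cldn5 between 23647 and 51351. Brain tissue markers were present too, with the neuronal Snap25 between 16617 and 124806. Choroid plexus markers stood out on intact array 2 (mean log2 signal 13.42) and sham 3 d array 3 (12.89), against 10.41 to 12.08 on the other 13 arrays. In dissected tissue, fewer cells of a type and less RNA per cell cannot be told apart.

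At 24 h, most probe sets of the pathway read lower after 3VO than after sham. The signal was lower for 10 of 12 and higher for 2, with a median log2 difference of -0.34 against -0.02 over all probe sets tested. For 6 of the 12 every 3VO array lay below every sham array, against 9% of all probe sets tested. These were both Gucy1a1 probe sets, Nos3, Nos2, Pde5a and 1 of the 2 for Cav1. Ddah1 was the 1 probe set with every 3VO array above every sham array, against 6.42% of all. None of the 12 passed limma's test at a Benjamini-Hochberg adjusted p of 0.05, which 0.0508% of all probe sets did, and 2 of the 12 had an unadjusted p under 0.05 (6.97% of all).

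Marker lists of several cell types moved with the 24 h comparison. Mean log2 signals were lower after 3VO than after sham without overlap for smooth muscle (14.13 to 14.69 against 14.97 to 15.19), pericytes (11.30 to 11.54 against 11.55 to 12.06) and leptomeningeal cells (15.22 to 15.33 against 15.42 to 15.79). The same held for choroid plexus (10.41 to 10.50 against 10.56 to 12.03) and erythroid cells (12.93 to 13.24 against 13.48 to 13.98). Macrophage markers were higher after 3VO without overlap (13.92 to 14.39 against 13.33 to 13.87). The part of the pericyte, leptomeningeal, erythroid and macrophage lists in the results was not tested.

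At 3 d the pattern was smaller. The signal was lower after 3VO for 9 of 12, with a median of -0.15 against -0.01 over all probe sets. Nos2 was the 1 member whose arrays did not overlap, and it was higher. Of all probe sets 4.34% were higher without overlap and 4.75% lower. None of the 12 passed the adjusted test in limma, as 0% of all probe sets did, and 1 had an unadjusted p under 0.05 (4.73% of all).

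**Figure D1:**
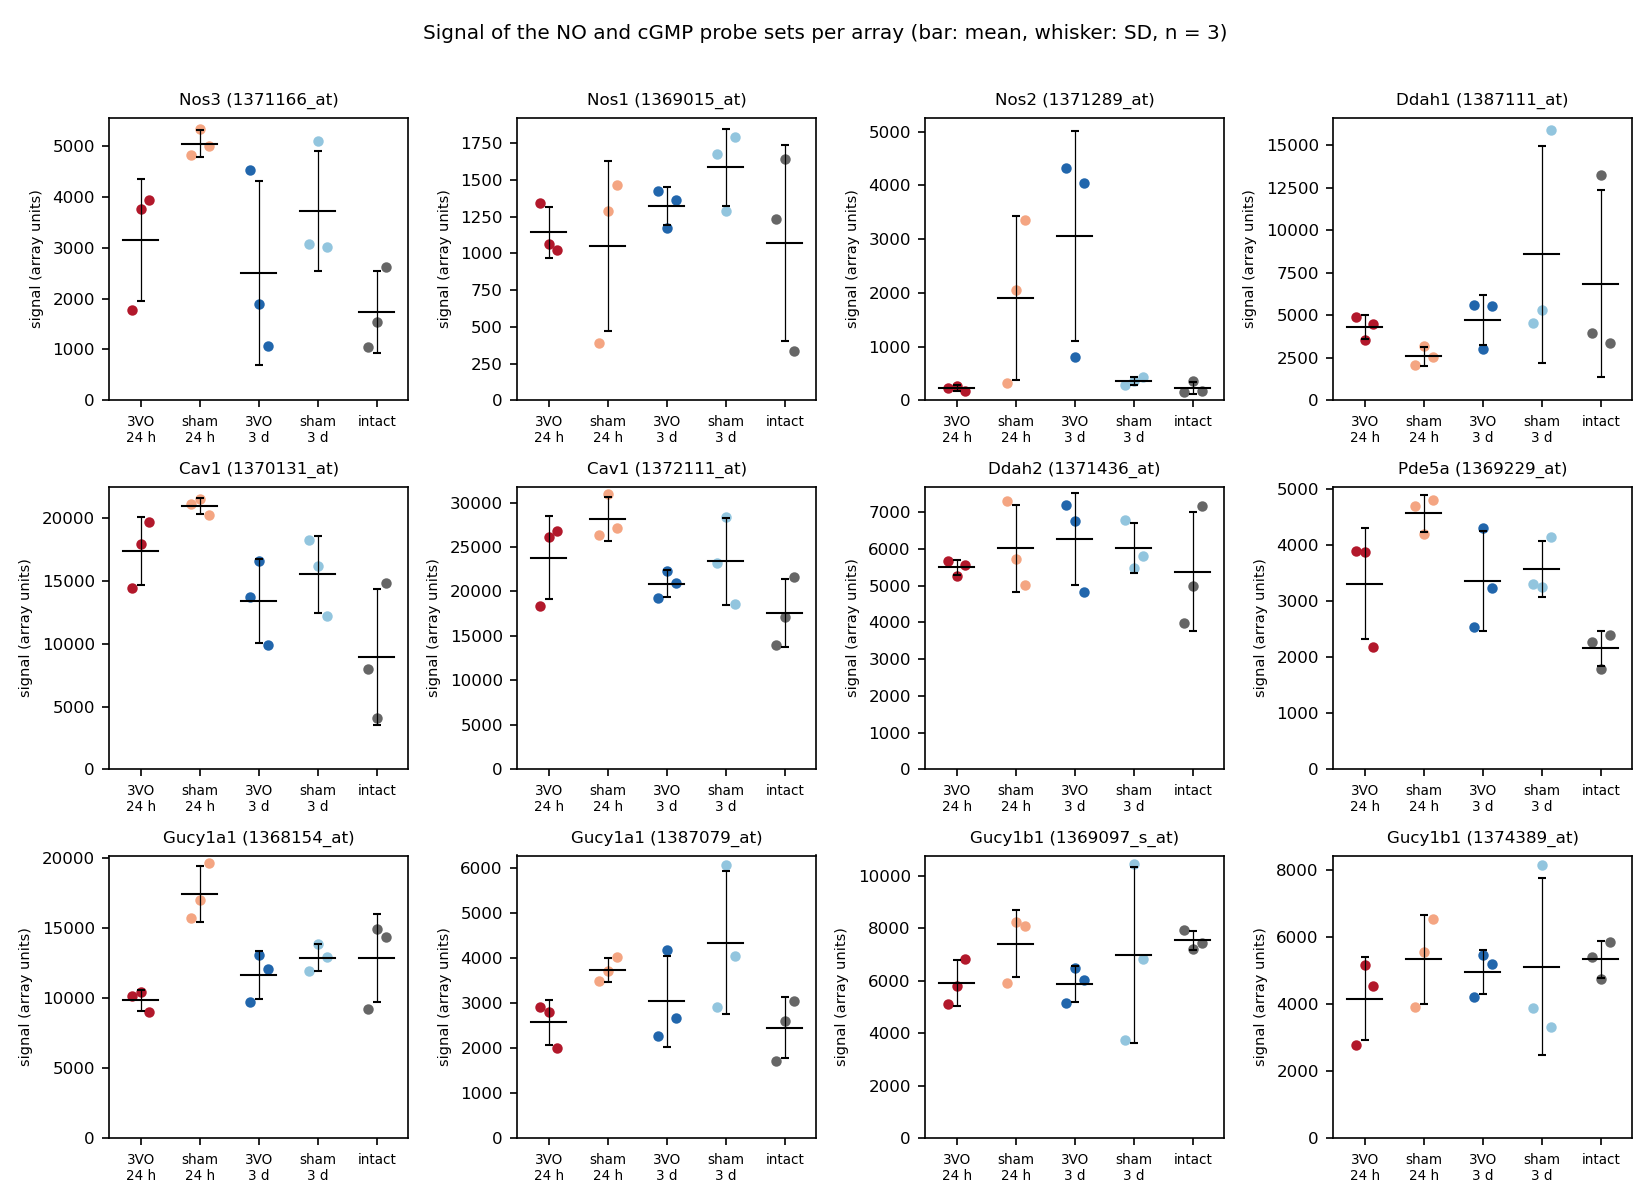
Signal in array units (linear axes from 0) of the 12 probe sets for each of the 15 arrays, with 3VO left of sham at each time and intact arteries last; points are arrays, bars means and whiskers SD (n = 3). Gucy1a1 (1368154_at) separates the 24 h groups, and Nos2 (1371289_at) is high on 2 sham arrays at 24 h and on the 3VO arrays at 3 d.

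Nos3, the endothelial synthase, had signals of 1776, 3769 and 3928 in 3VO arteries at 24 h, against 4819, 5327 and 4992 in sham arteries. All 3 sham arrays lay above all 3 3VO arrays, and the sham arrays were the more alike. The mean was 3158 ± 1200 after 3VO and 5046 ± 258 after sham (SD, n = 3 each). This gave a log2 difference of -0.76 (95% interval -1.74 to 0.22), with an adjusted p of 0.796 in limma. Without 3VO array 1, the lowest, it was -0.39.

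At 3 d, Nos3 read 4533, 1890 and 1068 in 3VO arteries, against 3075, 5093 and 3009 in sham arteries. The groups overlapped, since 3VO array 1 exceeded 2 sham arrays. On the log2 scale the difference was -0.78 (interval -1.76 to 0.20). It was -0.90 without sham array 1, whose labels conflict, -1.34 without 3VO array 1 and -0.30 without 3VO array 3.

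Intact arteries held the lowest mean of Nos3, with 1041, 1549 and 2612. Every sham array of either time lay above all 3. The log2 difference from intact was 1.63 (interval 0.65 to 2.61) for sham at 24 h and 1.15 (0.17 to 2.13) for sham at 3 d, with adjusted p of 0.152 and 0.287 in limma. Without intact array 3 the 24 h value was 1.98 and passed, with an adjusted p of 0.0358 in limma. Leaving out that array let 818 of 15737 probe sets pass in place of 0, so passing was not particular to Nos3. By group mean the order was sham at 24 h, sham at 3 d, 3VO at 24 h, 3VO at 3 d and intact, and the arrays of each neighbouring pair overlapped.

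Nos3 followed the endothelial markers from array to array. Over the 15 arrays its log2 signal and the mean of the 6 measured endothelial markers had Pearson r = 0.96 and Spearman rho = 0.94. The permutation p of 1e-05 was the smallest that 100000 resamples can give, and 0.00063 after adjustment over 63 relations computed. The permutations shuffled all 15 arrays without regard to group. This p and those of the other correlations therefore do not allow for shared groups or pools and can be too small. Without the 2 arrays farthest from the median of the marker mean r was 0.94, and within groups it was 0.92. Endothelial markers had a mean log2 signal of 13.16 to 13.70 in 3VO arteries at 24 h and 13.68 to 13.92 in sham arteries. At 3 d they stood at 12.91 to 13.57 after 3VO and 13.41 to 13.66 after sham, and in intact arteries at 12.64 to 13.40. With the endothelial mean as a covariate, chosen after seeing the data, the log2 difference of Nos3 between 3VO and sham was -0.04 at 24 h and 0.07 at 3 d. Between sham and intact it was then -0.10 at 24 h and -0.08 at 3 d, so all 4 values moved close to 0. With a covariate this closely correlated with Nos3, values near 0 largely follow from that correlation. They are no separate result, and the cause was not tested.

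The 5 genes whose probe sets followed Nos3 most closely over the 15 arrays were Ptprb (r = 0.90), Icam2 (0.88), Tie1 (0.87), Ehd4 (0.86) and Heg1 (0.86). They are given as a description, since arrays of a group and the dissection are shared.

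The 250 bases before the Nos3 start (RefSeq, build GRCr8, chr4:11706582-11706831, minus strand) are shown because Nos3 is the member most tied to 1 cell type here. Capitals mark CACCC, the core that Krüppel-like factors bind, and GGGCGG, the GC box of Sp factors, both searched on both strands. CACCC occurs in 49.2% of 33469 RefSeq windows of the same length and GGGCGG in 30.5%.
Nos3: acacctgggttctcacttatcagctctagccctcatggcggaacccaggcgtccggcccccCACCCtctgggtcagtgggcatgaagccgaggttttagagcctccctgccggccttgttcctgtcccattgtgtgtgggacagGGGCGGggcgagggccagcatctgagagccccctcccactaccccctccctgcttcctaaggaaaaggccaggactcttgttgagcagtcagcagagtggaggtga
No CArG box, the motif of serum response factor, was found in this window, and 1.5% of all windows held one.

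Nos2, the inducible synthase of inflammatory cells and stimulated muscle, was the most variable member, with signals that spanned 26.4-fold over the arrays. In 3VO arteries at 24 h it read 234, 275 and 172, against 314, 2047 and 3352 in sham arteries. The 3VO arrays were all low, and 2 of the 3 sham arrays were high. The nearest 3VO and sham arrays were 39.0 signal units apart, and Nos2 read under 1000 on 11 of the 15 arrays. The log2 difference was -2.46 (interval -4.09 to -0.84), with an adjusted p of 0.505 in limma.

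At 3 d the direction was the opposite, with 4333, 804 and 4046 in 3VO arteries and 288, 352 and 434 in sham arteries. Every 3VO array lay above every sham array, and the log2 difference was 2.72 (interval 1.10 to 4.35, adjusted p = 0.703 in limma), or 2.58 without sham array 1. Intact arteries stood at 164, 363 and 175, near the lowest signals.

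The probe set assigned to both Nos2 and Nos2-ps1 did not show these separations. It read 422, 47.0 and 127 in 3VO arteries at 24 h, against 267, 108 and 519 in sham arteries. At 3 d it read 255, 109 and 376 in 3VO arteries, against 229, 216 and 331 in sham arteries. The groups overlapped at both times, and all these signals were low on the scale of the array.

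The difference between the 24 h and 3 d effects of 3VO on Nos2 was -5.19 on the log2 scale (interval -7.49 to -2.89), with an adjusted p of 0.999 in limma. All 12 members had that adjusted p in this contrast, where 0% of all probe sets passed. An unadjusted p under 0.05 was reached by 2 of the 12, Nos2 and the first Gucy1a1 probe set, against 2.78% of all. The macrophage marker mean and Nos2 had little relation over the 15 arrays (r = 0.04, rho = -0.10, permutation p = 0.886 and 0.714, adjusted 0.901 and 0.865). Without the 2 arrays farthest from the median of those markers r was 0.10, and within groups it was -0.45. The macrophage mean (log2) was nevertheless higher after 3VO than after sham without overlap at 3 d, at 13.63 to 13.95 against 13.19 to 13.25. Its part in the Nos2 difference was not tested.

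Nos1, the neuronal synthase, read 1342, 1067 and 1021 in 3VO arteries at 24 h, against 391, 1289 and 1468 in sham arteries. The groups overlapped, and the low first sham array set the sign of the difference: it was 0.32 (interval -0.82 to 1.46) with that array and -0.27 without it. After 3 d the readings were 1425, 1176 and 1366 after 3VO, against 1674, 1289 and 1794 after sham, a log2 difference of -0.25 with overlap. In intact arteries Nos1 read 1232, 1644 and 337, the widest spread of the 5 groups (SD 668).

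Caveolin-1, encoded by Cav1, forms endothelial and muscle caveolae and holds Nos3 inactive. The first Cav1 probe set (1370131_at) read 14473, 17959 and 19731 in 3VO arteries at 24 h, against 21116, 21533 and 20259 in sham arteries. The groups did not overlap, but the 3VO arrays came within 528 signal units of sham. Its log2 difference was -0.28 (interval -0.99 to 0.42, adjusted p = 0.916 in limma).

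The second Cav1 probe set (1372111_at) read 18394, 26102 and 26860 in 3VO arteries at 24 h and 26351, 30950 and 27126 in sham arteries, with overlap. Its log2 difference was -0.26 (interval -0.66 to 0.14). Without 3VO array 1 the 24 h differences were -0.16 in the first probe set and -0.08 in the second. At 3 d both probe sets overlapped between 3VO and sham, at -0.23 and -0.15, and the first was -0.10 without sham array 1.

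Against intact arteries the mean of Cav1 was higher in every operated group. In both probe sets only sham at 24 h stood clear of intact, and the arrays of the other operated groups overlapped with it. In the first probe set, intact arteries read 7997, 4119 and 14810, and every 24 h sham array lay above them. The log2 difference from intact was 1.41 (interval 0.71 to 2.12, adjusted p = 0.135 in limma) for sham at 24 h, 0.96 for sham at 3 d (0.49 without intact array 2), 1.13 for 3VO at 24 h and 0.73 for 3VO at 3 d. In the second it was 0.70 (interval 0.30 to 1.10, adjusted p = 0.136 in limma), 0.41, 0.44 and 0.27 (interval -0.13 to 0.67). The intact arrays ended the call: without intact array 3, the highest, the first probe set passed in all 4 comparisons with intact in limma (adjusted p = 0.012, 0.0404, 0.0121 and 0.0396) and the second in sham at 24 h (0.0279). Without that array 818 probe sets passed for sham at 24 h in place of 0, so the shift was not particular to Cav1.

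The Cav1 probe sets followed each other over the arrays (r = 0.78, rho = 0.88, permutation p = 0.00058 and 7e-05, adjusted 0.00731 and 0.00142, r = 0.74 without 2 arrays, 0.50 within groups). Both followed the endothelial markers, with r = 0.77 and 0.84, rho = 0.87 and 0.84, adjusted permutation p = 0.00798 and 0.00205 for r and 0.00142 and 0.00239 for rho. Without the 2 farthest arrays r was 0.72 and 0.80, and within groups it was 0.53 and 0.66. Other lists came as close within groups, with r = 0.70 for macrophage markers in the first probe set and 0.64 for smooth muscle markers in the second. Over the 15 arrays those were 0.57 and 0.60 (adjusted permutation p = 0.0895 and 0.0847). Most alike for the brighter Cav1 probe set were Acvrl1 (r = 0.91), Hrct1 (0.89), Gata2 (0.88), RT1-S3 (0.88) and Mecom (0.87).

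Ddah1 and Ddah2 break down asymmetric dimethylarginine, an inhibitor of the synthases. Ddah1 read 4885, 3526 and 4496 in 3VO arteries at 24 h, against 2053, 3173 and 2547 in sham arteries. It was the 1 member higher after 3VO with no overlap, at a log2 difference of 0.74 (interval -0.31 to 1.78, adjusted p = 0.82 in limma).

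At 3 d Ddah1 read 5580, 3007 and 5542 after 3VO and 4530.0, 5295 and 15891 after sham, and in intact arteries 3962, 13214 and 3389. The readings of 15891 and 13214 came from the 2 arrays highest in choroid plexus markers. The 3 d difference was -0.68 with all arrays and -0.11 without those 2. Without sham array 1 it was -1.02. Sham at 24 h against intact was -1.14 (interval -2.18 to -0.09) with all arrays and -0.52 without them. Ddah1 and the choroid plexus mean had r = 0.62 and rho = 0.21 (permutation p = 0.015 and 0.443, adjusted 0.0729 and 0.66), and r = -0.12 without those arrays, so the relation rested on them. Within groups r was 0.72.

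Ddah2 was the steadiest member, with a range of 1.83-fold over the 15 arrays. It read 5662, 5262 and 5564 in 3VO arteries at 24 h and 7298, 5732 and 5002 in sham arteries. The 3 d arrays read 7193, 6744 and 4838 after 3VO and 6775, 5485 and 5816 after sham. The groups overlapped at both times, with log2 differences of -0.11 (interval -0.56 to 0.34) and 0.04 (-0.41 to 0.49).

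Gucy1a1, the alpha subunit of the nitric oxide receptor, carried the lowest p of the pathway for 3VO at 24 h. The first probe set (1368154_at) read 10146, 10396 and 8968 in 3VO arteries, against 15692, 17010 and 19619 in sham arteries. The lowest sham array was 1.51 times the highest 3VO array. Means were 9837 ± 762 and 17440 ± 1999 (SD, n = 3 each), a ratio of geometric means of 0.566. The log2 difference was -0.82 (SE 0.17, interval -1.19 to -0.45), with an unadjusted p of 0.000258 and an adjusted p of 0.151 in limma. The adjusted p was 0.0334 with array weights and 0.0321 without intact array 1, and over all alternatives it ran from 0.032 up to 1.

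At 3 d the same probe set read 9710.1, 13033 and 12100 in 3VO arteries and 11897, 13818 and 12899 in sham arteries, with overlap. The log2 difference was -0.16 (interval -0.52 to 0.21). The 24 h effect minus the 3 d effect was -0.67 (interval -1.19 to -0.15, adjusted p = 0.999 in limma). Intact arteries read 9235, 14931 and 14378, and only the sham group at 24 h stood clear of the group next to it in order of means.

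The second Gucy1a1 probe set (1387079_at) read 2904, 2801 and 1998 in 3VO arteries at 24 h, against 3487, 3708 and 4022 in sham arteries. The groups again did not overlap, and the log2 difference was -0.56 (interval -1.19 to 0.07, adjusted p = 0.774 in limma). The 3 d readings were 2262, 4177 and 2665 after 3VO and 2909, 6053 and 4052 after sham, with overlap, at -0.50. Without sham array 1 the 3 d value was -0.75, and without sham array 2 it was -0.23. Over the 15 arrays the 2 probe sets had r = 0.67 and rho = 0.66 (adjusted permutation p = 0.0357 and 0.0603, r = 0.71 without 2 arrays, 0.80 within groups).

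Gucy1b1, the beta subunit, showed the same sign at 24 h but no separation. Its first probe set (1369097_s_at) read 5115, 5800 and 6838 in 3VO arteries and 5932, 8221 and 8079 in sham arteries. Its second (1374389_at) read 2782, 5167 and 4551 in 3VO arteries and 3901, 5557 and 6541 in sham arteries. The log2 differences were -0.32 (interval -0.89 to 0.26) and -0.37 (-1.02 to 0.28), and the second was -0.10 without 3VO array 1. At 3 d they were -0.13 and 0.06, and sham array 2, at 10427 and 8149, was the highest of all 15 arrays in both. Without that array they were 0.21 and 0.45, and without sham array 1 -0.53 and -0.08, so the sign of both depended on single arrays. In the first probe set, every 3VO array of either time lay below every intact array (7946, 7220 and 7444), with a log2 difference of -0.36 at both times. Of all probe sets 6.19% were lower without overlap at 24 h and 5.11% at 3 d, and those differences had adjusted p of 0.707 and 0.594 in limma.

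Both Gucy1a1 probe sets followed the 8 smooth muscle markers over the 15 arrays, with r = 0.87 and 0.85 and rho = 0.88 and 0.82. The adjusted permutation p was 0.00105 for both r, and 0.00142 and 0.00409 for rho. Without the 2 farthest arrays r was 0.83 and 0.78, and within groups it was 0.84 and 0.87. The Gucy1b1 probe sets had r = 0.52 and 0.51 with these markers (adjusted permutation p = 0.142 and 0.145). With the smooth muscle mean as a covariate the 24 h difference was -0.44 for the first Gucy1a1 probe set and 0.14 for the second. For the Gucy1b1 probe sets it was 0.07 and 0.09. That mean did not overlap between the 24 h groups, so these values compare them at a marker level that their arrays did not share.

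**Figure D2:**
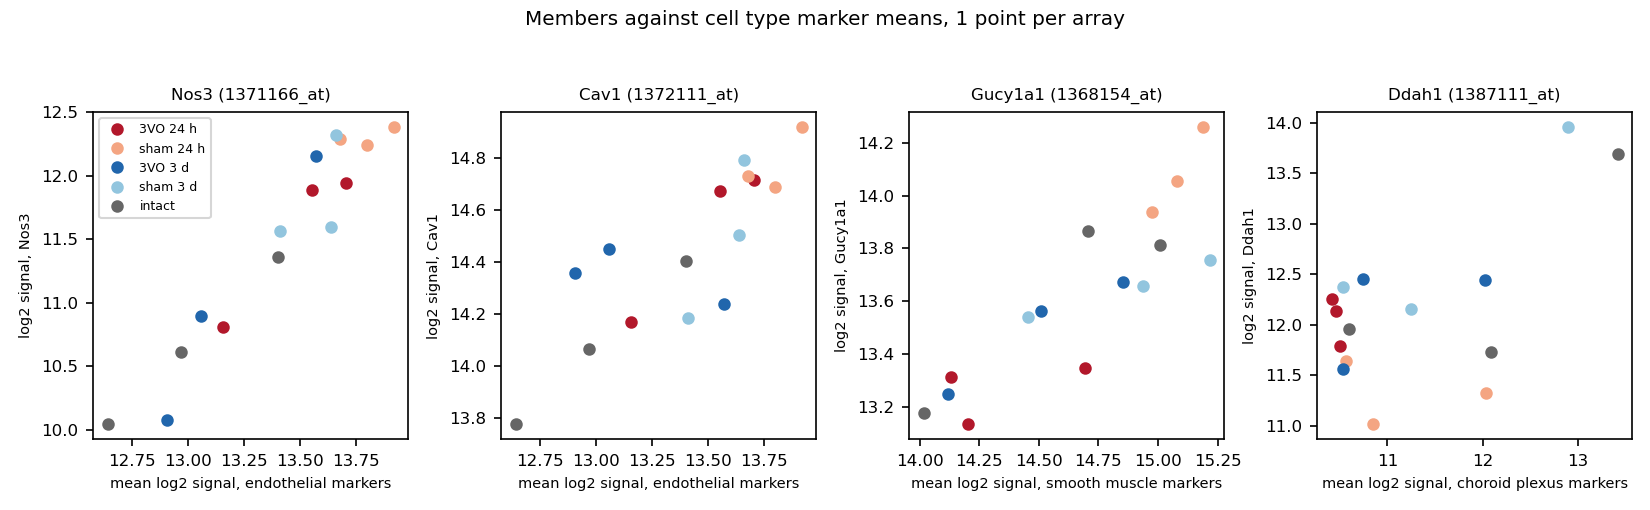
Log2 signal of 4 probe sets (vertical axes) against the mean log2 signal of a cell type's markers (horizontal axes), with 1 point per array coloured by group. Nos3 is higher where the endothelial mean is higher (r = 0.96), Cav1 likewise (0.84) and Gucy1a1 with the smooth muscle mean (0.87), and the 2 highest Ddah1 points are the arrays richest in choroid plexus markers.

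Most alike for the brighter Gucy1a1 probe set over the 15 arrays were the smooth muscle actin Acta2 (r = 0.88), Trim47 (0.86), Pdlim3 (0.86), Sorbs2 (0.86) and phospholamban, Pln (0.86). For the brighter Gucy1b1 probe set they were Kcnh1 (0.84), Arl15 (0.81), Kcnma1 (0.80), Mfhas1 (0.80) and Zfp282 (0.79).

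The 250 bases before each start are shown for the cyclase subunits because they form 1 enzyme and lie near each other (RefSeq, build GRCr8, minus strand). Between them on chromosome 2, 1 gene was annotated, and it was not protein-coding. Gucy1a1 is at chr2:169779624-169779873 and Gucy1b1 at chr2:169696988-169697237. Capitals mark GGGCGG and CCAAT, the box of the NF-Y factor, which here reads ATTGG on the printed strand.
Gucy1a1: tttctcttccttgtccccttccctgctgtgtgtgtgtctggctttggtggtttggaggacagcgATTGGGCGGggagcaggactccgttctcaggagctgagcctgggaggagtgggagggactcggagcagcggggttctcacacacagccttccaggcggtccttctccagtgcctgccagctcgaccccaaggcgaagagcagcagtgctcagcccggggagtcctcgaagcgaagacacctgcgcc
Gucy1b1: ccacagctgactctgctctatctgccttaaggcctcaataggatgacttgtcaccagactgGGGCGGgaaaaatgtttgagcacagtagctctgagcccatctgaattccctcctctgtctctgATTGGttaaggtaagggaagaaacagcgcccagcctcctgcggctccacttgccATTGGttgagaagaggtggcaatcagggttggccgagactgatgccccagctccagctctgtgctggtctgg
Both windows held GGGCGG and CCAAT, which overlap in Gucy1a1, and CCAAT occurs in 34.0% of all windows. Gucy1b1 held CCAAT at 2 places. Neither window held a CArG box. Promoter entries were found for 8 of the 10 genes.

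Pde5a, the phosphodiesterase that hydrolyses cGMP in smooth muscle, read 3896, 3873 and 2178 in 3VO arteries at 24 h, against 4696, 4201 and 4815 in sham arteries. The groups did not overlap, with 1 3VO array well below the other two. Between the means the log2 difference was -0.51 (interval -1.03 to 0.01, adjusted p = 0.733 in limma), and -0.23 without that array. At 3 d it read 2539, 4314 and 3240 after 3VO and 3311, 3254 and 4156 after sham, with overlap, at -0.11 (interval -0.63 to 0.41).

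Intact arteries read 2272, 1797 and 2408 for Pde5a, below every sham array of either time. The log2 difference from intact was 1.09 (interval 0.56 to 1.61, adjusted p = 0.135 in limma) for sham at 24 h and 0.73 (0.20 to 1.25, adjusted p = 0.23) for sham at 3 d. For 3VO it was 0.58 at 24 h and 0.61 at 3 d. Without intact array 3 the 24 h sham value was 1.17, with an adjusted p of 0.0322 in limma, in the fit where 818 probe sets passed in place of 0. Pde5a ran against the neuronal markers over the 15 arrays (r = -0.74, rho = -0.74, adjusted permutation p = 0.014 and 0.0167, r = -0.60 without 2 arrays, -0.52 within groups). It was not alone in this. The second Gucy1a1 probe set had r = -0.69, the first Cav1 probe set -0.67 and Ddah2 -0.66. Their adjusted permutation p was 0.0297, 0.0297 and 0.0406 for r, and 0.0124, 0.132 and 0.0656 for rho. Neuronal markers had a mean of 11.37 to 12.88 in sham arteries at 24 h and 12.43 to 14.48 in intact arteries. With that mean as a covariate the 24 h sham value was 0.76. Most alike for Pde5a were St3gal1 (r = 0.89), Wls (0.87), Nek9 (0.87), Map3k1 (0.87) and Pacsin2 (0.86).

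**Figure D3:**
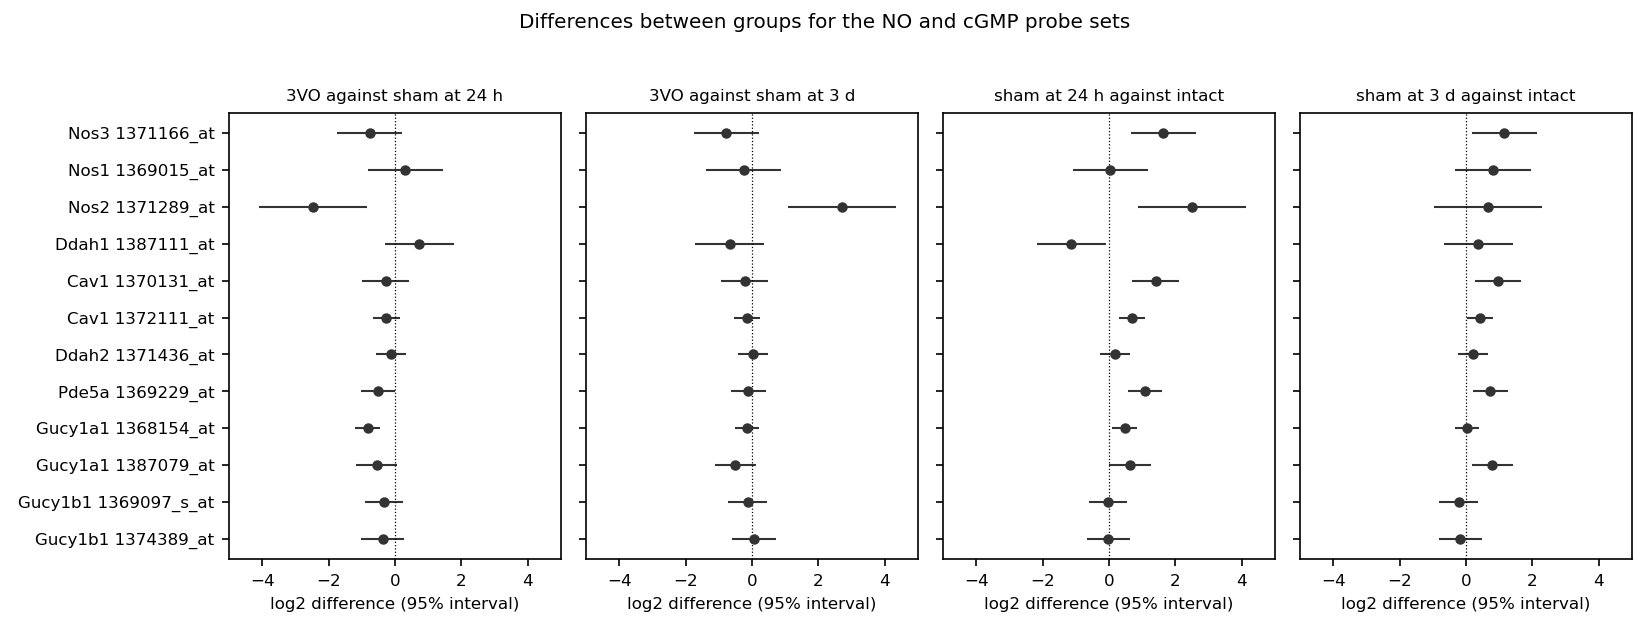
Log2 differences (horizontal axes, points) with 95% intervals (lines) of the 12 probe sets in 4 comparisons. For 3VO against sham at 24 h, 10 of 12 points lie left of 0, and for sham at 24 h against intact 9 of 12 lie right of it.

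Sham groups read higher than intact arteries for much of the pathway. The intact arrays carry the last numbers in the array titles, so every comparison with intact is confounded with array number. Endothelial markers were also higher in sham than in intact arteries (mean log2 12.64 to 13.40) without overlap, at 24 h (13.68 to 13.92) and at 3 d (13.41 to 13.66). Astrocyte markers were lower in sham at 24 h than in intact arteries without overlap (13.50 to 14.13 against 14.27 to 14.59). So were oligodendrocyte markers (13.34 to 14.24 against 14.37 to 14.50). What raised the readings was not tested. Against intact arteries, sham at 24 h was higher for 9 of 12 probe sets, with a median log2 difference of 0.55 against 0.04 over all probe sets. All sham arrays lay above all intact arrays for 6 of 12 (9.96% of all) and below for 1, Ddah1 (7.41% of all). An unadjusted p under 0.05 was reached by 8 of 12, against 15% of all probe sets, and none passed the adjusted test in limma, as 0% of all did. For sham at 3 d, 10 of 12 were higher, with a median of 0.53 against 0.08. Nos3 and Pde5a were higher without overlap (9.86% of all), and none was lower without overlap (5.34% of all). There 5 of 12 had an unadjusted p under 0.05 (14.2% of all), none passed the adjusted test in limma and 0% of all did. The comparisons of 3VO with sham and of sham with intact share the sham arrays, so a high sham group lowers the first and raises the second.

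The 3VO groups stood closer to intact. At 24 h 8 of 12 probe sets were higher than intact, with a median of 0.08 against 0.00 over all. None lay above intact without overlap (7.59% of all) and 1 below (6.19%), and 3 had an unadjusted p under 0.05 (9.96%). At 3 d 8 of 12 were higher, with a median of 0.28 against 0.07. Nos2 and Pde5a lay above intact without overlap (10.3% of all) and 1 Gucy1b1 probe set below (5.11%), and 3 had an unadjusted p under 0.05 (12.9%). Nos2 had the largest difference there, 3.37 (interval 1.75 to 5.0, adjusted p = 0.1 in limma), and the adjusted p was 0.0452 without sham 24 h array 1. None of the 12 passed in limma at either time, against 0.184% of all probe sets at 24 h and 0.222% at 3 d.

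The wider pathway was drawn from 62 further genes in 6 groups by role, of which 50 had a probe set, 65 probe sets in all. None of the 65 passed the adjusted test in limma in any of the 7 contrasts. At 24 h 8 of 65 had an unadjusted p under 0.05 (6.97% of all), 37 were higher and 28 lower after 3VO, and the median log2 difference was 0.03. At 3 d 5 of 65 had one (4.73% of all), 33 were higher and 32 lower, and the median was 0.00.

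**Figure D4:**
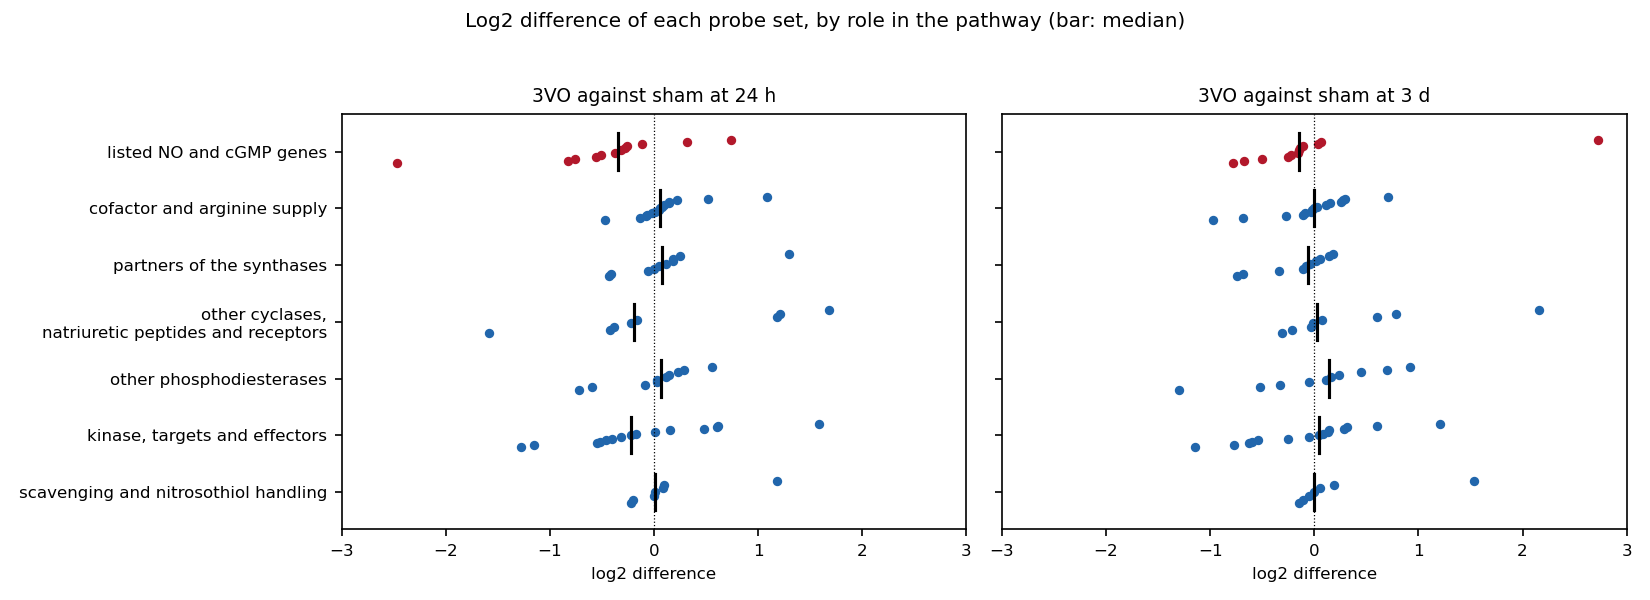
Log2 difference of each probe set between 3VO and sham (horizontal axes) at 24 h and at 3 d, by role (rows), with bars at the medians. The 12 probe sets of the listed genes have medians of -0.34 at 24 h and -0.15 at 3 d, and those of the other roles lie between -0.22 and 0.14.

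Genes of cofactor and arginine supply, which feed the synthases with tetrahydrobiopterin and arginine, had 10 of 15 probe sets higher and 5 lower after 3VO at 24 h, and 8 higher and 7 lower at 3 d. None had an unadjusted p under 0.05 at either time. The arginine carrier Slc7a1 had the smallest, at a log2 difference of 1.08 (interval -0.07 to 2.24) at 24 h, or 0.52 without sham array 1. Partners of the synthases were higher in 7 and lower in 3 of 10 at 24 h, and higher in 4 and lower in 6 at 3 d. Cav2, which assembles with Cav1, had a log2 difference of -0.43 at 24 h without overlap, and 1.05 for sham at 24 h against intact (adjusted p = 0.135 in limma).

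Other cyclases, natriuretic peptides and receptors were higher in 3 and lower in 5 of 8 at 24 h, and 4 and 4 at 3 d. Npr3, the clearance receptor of natriuretic peptides, read 959, 1432 and 898 in 3VO arteries at 3 d, against 476, 145 and 166 in sham arteries. The groups did not overlap, and the log2 difference was 2.16 (interval 0.78 to 3.54, adjusted p = 0.763 in limma). Nppc, the C-type natriuretic peptide, was at 668, 169 and 84 in 3VO arteries at 24 h and 623, 746 and 690 in sham arteries, a log2 difference of -1.59 (adjusted p = 0.558 in limma) with overlap, or -0.98 without 3VO array 3. The other phosphodiesterases were higher in 7 and lower in 3 of 10 at 24 h, and 6 and 4 at 3 d. Pde3a, which cGMP inhibits, had a log2 difference of -1.30 at 3 d (interval -3.08 to 0.48) without overlap, or -0.73 without 3VO array 1.

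The kinase, targets and effectors group had 6 of 15 probe sets with an unadjusted p under 0.05 at 24 h (6.97% of all), and 6 were higher and 9 lower. Rgs2, a regulator of G protein signalling that the cGMP kinase activates, read 12668, 13384 and 10850 in 3VO arteries at 24 h in 1 probe set (1387074_at), against 8574, 7710 and 7694 in sham arteries. The groups did not overlap, and the log2 difference was 0.62 (interval 0.31 to 0.92, adjusted p = 0.226 in limma), with 0.60 in the other Rgs2 probe set.

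Pln, the brake on the calcium pump of the sarcoplasmic reticulum and a target of the kinase, read 9562, 18656 and 16770 in 3VO arteries at 24 h (1370157_at), against 34613, 33334 and 36993 in sham arteries. Every 3VO array lay far below every sham array, and the log2 difference was -1.28 (interval -2.02 to -0.53, adjusted p = 0.374 in limma), with -1.15 in the other Pln probe set. Smooth muscle markers were lower on the same 3VO arrays, as given above, and their part in this was not tested.

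Itpr1, the calcium release channel that the kinase restrains, read 11933, 16553 and 16544 after 3VO at 24 h and 21128, 19601 and 24445 after sham. At 3 d it read 14828, 16246 and 16760 after 3VO and 19399, 27007 and 26745 after sham. It was lower without overlap at both times, at -0.54 and -0.60 (adjusted p = 0.713 and 0.999 in limma). Kcnma1 encodes the pore of the calcium-activated potassium channel. In 1 probe set (1370472_a_at) it read 282, 505 and 579 after 3VO at 3 d and 1406, 830 and 810 after sham. The groups did not overlap, and the log2 difference was -1.14 (adjusted p = 0.968 in limma). The Kcnma1 probe set listed above as alike to Gucy1b1 is a different one. Its 3 d difference is not given here, so the lower reading is stated for this probe set only.

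Scavenging and nitrosothiol handling had 4 of 7 probe sets higher at 24 h and 3 of 7 at 3 d. Hmox1, the haem oxygenase, was higher after 3VO without overlap at both times. At 3 d it read 3279, 20432 and 5291 after 3VO and 3100, 1907 and 2443 after sham, with array 2 of the 3VO group far above the rest. The log2 difference was 1.53 (interval 0.38 to 2.69, adjusted p = 0.953 in limma), or 0.77 without that array.

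**Figure D5:**
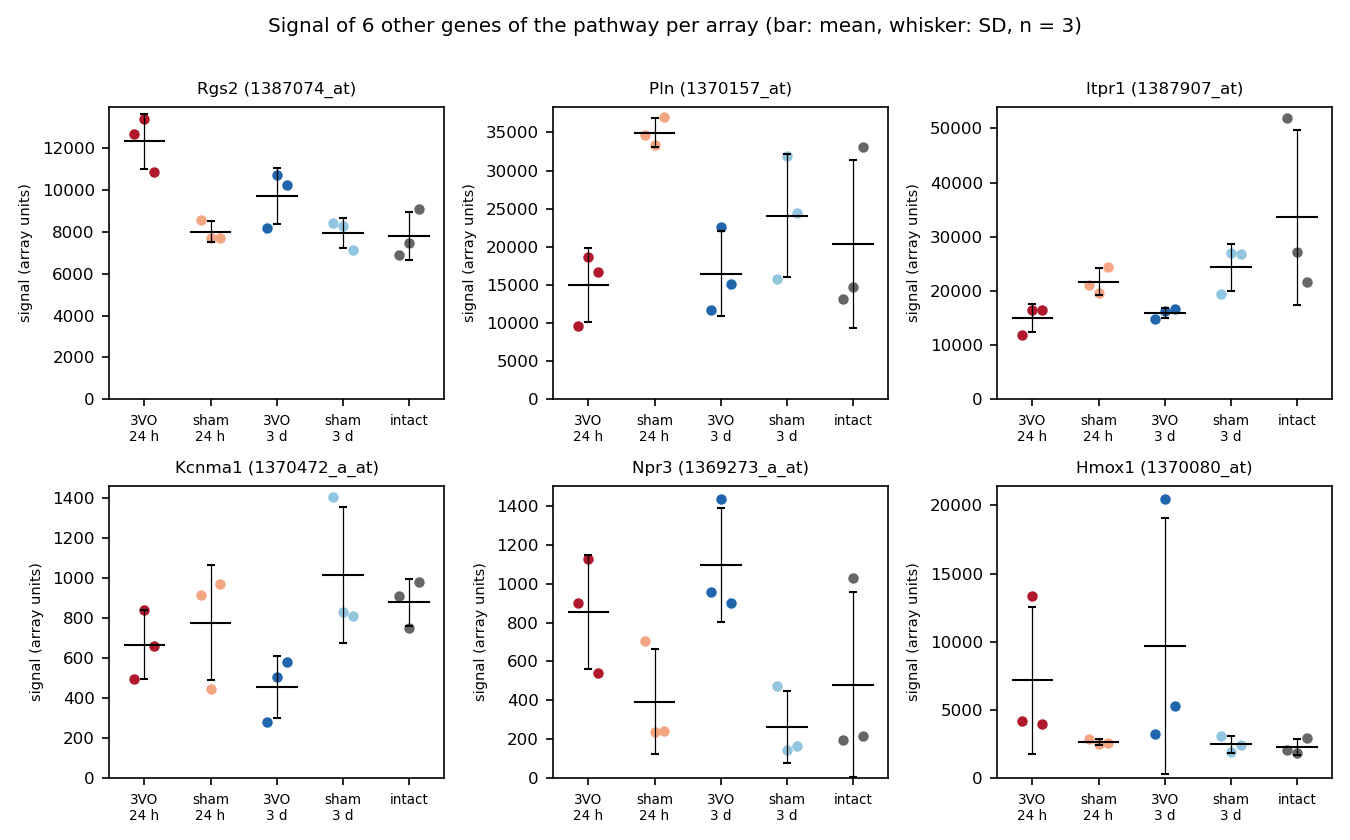
Signal in array units (linear axes from 0) of 6 further genes for each of the 15 arrays, with 3VO left of sham at each time; points are arrays, bars means and whiskers SD (n = 3). The 24 h 3VO arrays lie above sham for Rgs2 and below it for Pln and Itpr1, and the 3 d 3VO arrays lie above sham for Npr3 and Hmox1.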

How the data were processed

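Arteries were measured on 15 arrays. The deposited values are an intensity, the linear signal that the authors made in GCOS, per the submitters' processing notes (version not given in the sources used here). Per the labels the global target is 500, but each array's trimmed mean was 5000, so the pseudocount and filter are loose on this scale. Signals were taken as log2(signal + 16), and 15737 of 15923 probe sets were tested, those that reached 100 on 3 arrays. Control probe sets (57) were left out, and 12783 probe sets had 1 gene, 312 several and 2771 none.

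limma 3.58.1 in R 4.3.3 fitted 5 group means to all arrays (lmFit, eBayes with a variance trend, 10 residual and 4.83 prior degrees of freedom, 2-sided, Benjamini-Hochberg over all probe sets tested, threshold 0.05). The fit was tested on simulated data. Intervals are 95%. Correlations used 100000 permutations of all arrays, without regard to group, in Python 3.11.15. The members and the pathway and marker lists were chosen with earlier results of these data known. All member probe sets are named. Pathway genes were named from the 2 probe sets of each group with the smallest unadjusted p for 3VO against sham at each time. The other probe set is given for Rgs2 and Pln, and not for Kcnma1. Alternatives were other pseudocounts, filters and normalization, array weights, array number, marker means as covariates and leaving out arrays. The number of arrays limits the precision.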

Additional observations from a re-analysis of the deposited data

Results flagged for a closer look

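Nos2 was picked out because the occlusion effect had opposite signs at the 2 times. Every 3VO array lay below every sham array at 24 h, by only 39.0 signal units, and above every sham array at 3 d, by 369.9. The 24 h effect minus the 3 d effect was -5.19 on the log2 scale. That difference was tested in limma, with an unadjusted p of 0.000236 and an adjusted p of 0.999 over all probe sets. Under the 28 alternatives the value ran from -3.46 to -1.79 at 24 h and from 2.31 to 3.51 at 3 d. With no overlap, leaving out an array or changing the pseudocount, filter or variance trend could not turn its sign. The p-value and the held sign come from the values that picked Nos2 out, so they are no separate support. The probe set assigned to both Nos2 and Nos2-ps1 overlapped between 3VO and sham at both times.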

How the results depend on the processing

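No paired analysis was possible because the labels give no replicate numbers that groups share. No member passed the adjusted test in limma, and under the alternatives that kept all arrays 1 did, Gucy1a1 with array weights for 3VO against sham at 24 h. Of 31 member values with a direction, whose arrays did not overlap or whose interval left out 0, 6 of 868 alternative values turned sign. Where arrays did not overlap, leaving out an array or changing the pseudocount, filter or variance trend could not turn the sign. The low count was thus largely set by how the 31 were chosen. For Cav1 (1370131_at) 3VO against sham at 24 h was 0.078 with the neuron mean as covariate and 0.021 with the endothelial mean, and for Gucy1a1 (1387079_at) 0.14 with the smooth muscle mean. Nos3 in sham against intact was -0.10 at 24 h and -0.079 at 3 d with the endothelial mean. Gucy1b1 (1369097_s_at) in 3VO at 24 h against intact was 0.19 with array number as covariate. Of the 53 other member values, counted here by value and not by alternative, 41 turned sign under at least 1 of 28 alternatives. The cause was not tested.

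Counts of all probe sets that passed in limma depended on the setting. For 3VO against sham at 24 h it was 8, and 2 with no variance trend, 25 with array weights, 17 with the neuron mean, 2 with the smooth muscle mean and 20 fitted on the 2 groups alone. At 3 d it was 0, and 1 with array number, 5 with the neuron mean, 4 with the smooth muscle mean and 1 fitted on the 2 groups alone. For sham against intact it was 0 at both times. At 24 h it was 1 without the 2 arrays highest in choroid plexus and 2 fitted on the 2 groups alone, and at 3 d 1 without those 2 arrays. For 3VO at 24 h against intact it was 29. It was 8 with no variance trend, 1 with array number, 48, 6 and 3 with the smooth muscle, choroid plexus and endothelial means, 9 without the 2 arrays and 3 fitted on the 2 groups alone. For 3VO at 3 d against intact it was 35. It was 4 with no variance trend, 3 with array number, 2, 75, 2 and 6 with the neuron, smooth muscle, choroid plexus and endothelial means, 7 without the 2 arrays and 0 fitted on the 2 groups alone.

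Leaving out 1 array at a time gave these ranges. For 3VO against sham, 0 to 1 members and 1 to 13 probe sets passed at 24 h, and 0 members and 0 to 1 probe sets at 3 d. For sham against intact, 0 to 4 members and 0 to 818 probe sets passed at 24 h, and 0 to 1 members and 0 to 184 at 3 d. For 3VO against intact, 0 to 1 members and 7 to 227 probe sets passed at 24 h, and 0 to 1 members and 0 to 258 at 3 d. The highest counts against intact came without intact array 3. The choroid plexus and endothelial means and the fit without the 2 arrays were chosen after seeing the data.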
